A study of Mus musculus with 6 samples.

Results

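The growth hormone, STAT5 and IGF-1 axis was followed here through 10 genes in the livers of fasted CREBH-KO and WT mice. The 10 were taken as a list of named genes: the receptor gene Ghr, the kinase gene Jak2, the transcription factor genes Stat5a and Stat5b, the feedback inhibitor genes Socs2 and Cish, the repressor gene Bcl6, and the hepatic output genes Igf1, Igfals and Igfbp2. All 10 were found among the 55536 genes listed in the count files, and all 10 passed the filter on low counts that left 15589 genes for testing. The study measured total liver RNA by paired-end sequencing in 3 CREBH-KO liver samples and 3 WT liver samples, each called a liver below. The CREBH-KO mice are labelled as knockouts of CREBH, a liver-enriched membrane-bound transcription factor encoded by Creb3l3, and the WT mice served as their controls. The CREBH protein was not measured here. Both genotypes shared a 14 h overnight fast, so no fed state stands beside these values. The labels give neither age, sex and strain nor the deleted exons or the tissue range of the deletion, and they state for CREBH-KO libraries 2 and 3 that the first-read file has been lost.

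Growth hormone binds its receptor on hepatocytes and activates the kinase JAK2, which phosphorylates STAT5A and STAT5B. STAT5 then enters the nucleus and raises transcription of Igf1, of Igfals and of its own feedback inhibitors Socs2 and Cish, and it represses Bcl6, which binds many of the same DNA sites. In rodents the liver becomes resistant to growth hormone during a fast, and the release pattern of growth hormone differs between the sexes, which sets many sex-biased liver genes. Messenger RNA levels do not report receptor activity, STAT5 phosphorylation or circulating IGF-1, none of which was measured here.

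STAT5 binds DNA elements of the form TTCNNNGAA, a pattern that reads the same on both strands. It was searched from 250 bases before to 50 bases after each RefSeq transcription start (GRCm38.p6), and it occurred in 8.30% of 32851 such windows and in at least 1 window of 9.55% of 27025 genes. RefSeq windows were matched for 9 of the 10 genes, 16 windows in all, and the pattern occurred in windows of 3 of them, Cish, Bcl6 and Igfals. The matches are shown because both directions of STAT5 control are represented, with 30 bases around each match written 5′ to 3′ on the gene's own strand and the matched letters in capitals. Positions count from the RefSeq start site, so the Cish pair lies at that start itself (chr9:107296659-107296688, plus strand). The start lies inside the annotated Cish gene (chr9:107296026-107302784), and the 250 bases before it overlap an annotated exon. The Bcl6 matches lie on the minus strand of chromosome 16, at chr16:23988952-23988981 before the first start and at chr16:23981433-23981462, chr16:23981387-23981416 and chr16:23981353-23981382 before the second. The Igfals matches lie on the plus strand, at chr17:24877597-24877626 before the first start and chr17:24878162-24878191 before the second. The 250 bases before each of these Igfals starts overlap an annotated exon.

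Cish, bases 1 and 12 after the start: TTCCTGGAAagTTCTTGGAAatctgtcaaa
Bcl6 first start, -118: tagcaaattagTTCTCAGAAttccagaggc
Bcl6 second start, -168: caggccgcggcTTCCTGGAAagttacttct
Bcl6 second start, -122: gggcaggagtgTTCTGTGAAatccttagag
Bcl6 second start, -88: gatcgactacgTTCCGGGAAtgagagggct
Igfals first start, -236: cgatctataatTTCTCAGAAaagaggctga
Igfals second start, -58: tctgccaggtgTTCCTAGAAgaggccctgg

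Igfals and Igfbp2 were the axis genes whose difference between genotypes passed the test, so the 250 bases before a start of each are shown as well. The Igfals stretch precedes its second RefSeq start (chr17:24877981-24878230, plus strand), overlaps an annotated exon and holds the match at -58. The window of the third Igfals start held no match. The Igfbp2 stretch precedes its first start (chr1:72824230-72824479, plus strand) and holds no match. A match is a run of letters and not a measured binding site.

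Igfals second start, 250 bases: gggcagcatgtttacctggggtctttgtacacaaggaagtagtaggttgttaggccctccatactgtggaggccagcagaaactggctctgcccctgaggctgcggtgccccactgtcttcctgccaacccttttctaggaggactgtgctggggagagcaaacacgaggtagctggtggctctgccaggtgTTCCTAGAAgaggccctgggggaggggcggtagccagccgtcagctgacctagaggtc
Igfbp2 first start, 250 bases: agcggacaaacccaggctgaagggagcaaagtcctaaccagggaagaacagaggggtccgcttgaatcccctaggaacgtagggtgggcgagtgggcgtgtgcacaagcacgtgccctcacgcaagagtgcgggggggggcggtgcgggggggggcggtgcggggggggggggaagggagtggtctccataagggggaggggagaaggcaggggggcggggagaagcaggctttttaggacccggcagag

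Of the 10 axis genes, 2 fell in CREBH-KO livers (Igfals and Igfbp2), 0 rose, and 8 did not pass the test. The test was edgeR's quasi-likelihood test on the counts, with a Benjamini-Hochberg adjusted p under 0.05 over all 15589 genes. The same rule called 10.4% of all tested genes, 6.46% as lower and 3.91% as higher in CREBH-KO. The 10 genes were chosen with earlier results of these data known. The median log2 fold change (CREBH-KO minus WT) of the 10 genes was -0.28, against 0.02 over all tested genes. These genes share no single direction of control, since STAT5 raises Igf1 and represses Bcl6, so the median is no measure of axis output. No direction of growth hormone control was assumed for Igfbp2. In 5 of the 10 (Ghr, Jak2, Igf1, Igfals and Igfbp2) every CREBH-KO library lay below every WT library, while 30.6% of all tested genes had groups that did not overlap in either direction.

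**Figure D1:**
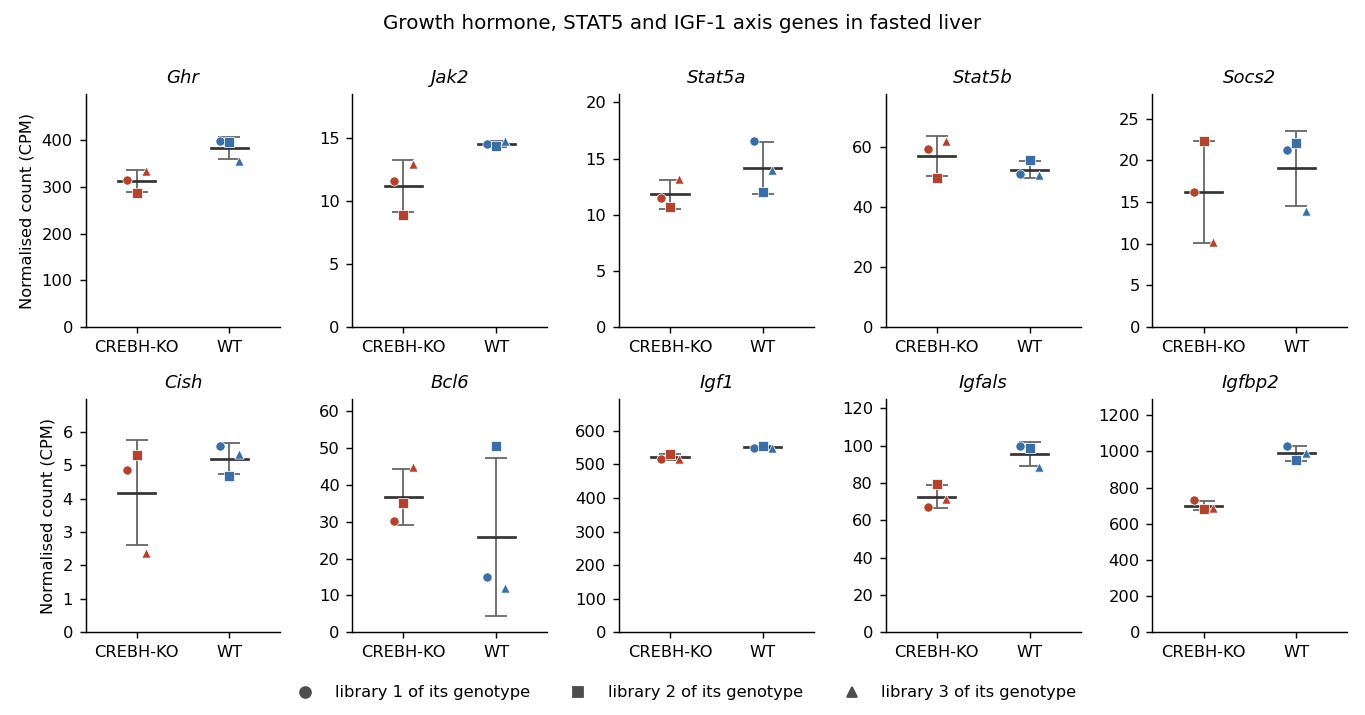
Normalised count (CPM, y axes from 0) of the 10 axis genes in 3 CREBH-KO and 3 WT livers, with 1 point per library, the mean as a bar and the SD as whiskers. Igfals and Igfbp2 lie lower in every CREBH-KO library, and the Bcl6 panel shows WT 2 at 50.7 CPM far above WT 1 and WT 3.

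The libraries held 28106243 to 39288819 reads assigned to genes, and replicate libraries differed by more than counting error, with a chi-square per degree of freedom of 16.9 to 45.3. Creb3l3 itself had 57.4, 45.0 and 46.4 CPM (normalised counts scaled to a common library size, per 1000000 reads in tested genes) in CREBH-KO livers and 467, 496 and 495 CPM in WT livers, a log2 fold change of -3.29 ± 0.11 (SE), with an edgeR adjusted p of 3.00e-06. Both genotypes carried high hepatocyte markers: Alb, Ttr, Tat, Cps1 and Hnf4a summed to 63945 to 69075 CPM in CREBH-KO and 53211 to 67467 CPM in WT, and 0 of the 5 passed the test. The labels do not say whether the 3 samples of a genotype came from separate mice, beyond calling them independent, and p-values measure the spread between these samples. In whole liver, fewer cells of a type and less RNA per cell cannot be told apart.

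Compared per length, as CPM per kb of exonic sequence, the group means of the 10 genes kept 1 order in both genotypes. Igfbp2 stood highest, at 379 ± 14.1 in CREBH-KO and 536 ± 22.0 in WT (SD, n = 3 each, CPM per kb). Igf1 came next with 52.7 ± 0.895 in CREBH-KO and 55.7 ± 0.390 in WT, then Ghr with 34.5 ± 2.62 in CREBH-KO and 42.4 ± 2.67 in WT. Igfals had 23.0 ± 1.99 in CREBH-KO and 30.2 ± 1.98 in WT, and Stat5b had 10.3 ± 1.20 in CREBH-KO and 9.49 ± 0.503 in WT. Below these stood Bcl6, Jak2, Socs2, Stat5a and, lowest, Cish with 0.652 ± 0.245 in CREBH-KO and 0.811 ± 0.0716 in WT. Bcl6 had 5.49 ± 1.12 in CREBH-KO and 3.87 ± 3.21 in WT. Its place in WT rests on WT 2, since in WT 1 and WT 3 it lay below Jak2 and Stat5a. Neighbours in this order whose libraries overlapped were Jak2 with Socs2 and Socs2 with Stat5a in CREBH-KO. In WT they were Bcl6 with Jak2 and Socs2 with Stat5a. The length joins all annotated exons of a gene, 6419 bases for Cish, and can exceed that of any single transcript. The order between genes, with Cish as lowest, depends on these lengths.

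The receptor gene Ghr (chr15:3317760-3583492, minus strand, GRCm38) had 314, 287 and 334 CPM in CREBH-KO livers and 399, 395 and 356 CPM in WT livers. Every CREBH-KO library lay below every WT library. The means were 312 ± 23.7 CPM in CREBH-KO and 383 ± 24.1 CPM in WT (SD, n = 3 each). The log2 fold change was -0.30 ± 0.09 (SE, 95% interval -0.50 to -0.10), with an edgeR adjusted p of 0.0668, which misses the threshold. It passed with no filter on low counts (edgeR adjusted p = 0.0284) and with DESeq2 (adjusted p = 0.0216).

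Jak2, the kinase that the receptor holds (chr19:29251828-29313080, plus strand), had 11.6, 8.89 and 12.9 CPM in CREBH-KO livers and 14.5, 14.3 and 14.8 CPM in WT livers. The WT libraries lay within a narrow range, all above the CREBH-KO libraries. Its log2 fold change was -0.38 ± 0.14 (SE, 95% interval -0.70 to -0.06), with an edgeR adjusted p of 0.133, so the difference did not pass.

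The neighbouring genes Stat5a (chr11:100859351-100885169, plus strand) and Stat5b (chr11:100780731-100850724, minus strand) encode the STAT5 proteins, and STAT5B is the main form in mouse liver. Stat5b had 59.6, 49.7 and 62.3 CPM in CREBH-KO livers and 51.0, 55.8 and 50.8 CPM in WT livers. The groups overlapped, since CREBH-KO 2 was the lowest of the 6 libraries and CREBH-KO 1 and 3 the highest. The log2 fold change of Stat5b was 0.12 ± 0.10 (SE, 95% interval -0.10 to 0.35), with an edgeR adjusted p of 0.484. Stat5a had 11.5, 10.7 and 13.2 CPM in CREBH-KO livers and 16.6, 12.0 and 13.9 CPM in WT livers. Here too the groups overlapped, and the log2 fold change was -0.26 ± 0.15 (SE, 95% interval -0.59 to 0.06), with an edgeR adjusted p of 0.298. Of the Stat5a exonic bases 1.01% overlap Stat3 on the other strand, and the strand setting of the counting is not given in the sources used here.

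Socs2 (chr10:95385362-95417180, minus strand), whose protein targets the growth hormone receptor for degradation, had 16.2, 22.4 and 10.2 CPM in CREBH-KO livers and 21.2, 22.1 and 13.9 CPM in WT livers. CREBH-KO 2 was the highest library and CREBH-KO 3 the lowest, so the CREBH-KO range enclosed the WT range. The log2 fold change was -0.23 ± 0.27 (SE, 95% interval -0.83 to 0.37), with an edgeR adjusted p of 0.633, and it was 0.01 without CREBH-KO 3. Cish (chr9:107296026-107302784, plus strand), another STAT5-induced inhibitor, had 4.86, 5.31 and 2.39 CPM in CREBH-KO livers and 5.59, 4.69 and 5.33 CPM in WT livers. CREBH-KO 3 was again the lowest, while CREBH-KO 1 and 2 lay within the WT range. The log2 fold change of Cish was -0.32 ± 0.28 (SE, 95% interval -0.94 to 0.31), with an edgeR adjusted p of 0.519, and it was -0.04 without CREBH-KO 3. Of the Cish exonic bases 11.5% overlap the genes Gm17040 and Gm17041 on the other strand.

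Bcl6 (chr16:23965052-23988852, minus strand), whose mRNA rises in liver when STAT5 is inactive, had 30.2, 35.1 and 45.0 CPM in CREBH-KO livers and 15.0, 50.7 and 12.1 CPM in WT livers. WT 2 was the highest of all 6 libraries, while WT 1 and WT 3 lay below every CREBH-KO library. The means were 36.8 ± 7.51 CPM in CREBH-KO and 25.9 ± 21.5 CPM in WT (SD, n = 3 each). The log2 fold change was 0.51 ± 0.46 (SE, 95% interval -0.52 to 1.53), with an edgeR adjusted p of 0.532. Without WT 2 it was 1.43, with an edgeR adjusted p of 0.00703. The call on Bcl6 rests on that library, and no label sets WT 2 apart from the other WT livers.

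Igf1 (chr10:87858265-87937042, plus strand), the hormone that mediates much of growth hormone's effect on growth, had 518, 532 and 515 CPM in CREBH-KO livers and 550.3, 556 and 548 CPM in WT livers. The groups did not overlap, yet they lay close together. The means were 522 ± 8.86 CPM in CREBH-KO and 551 ± 3.86 CPM in WT (SD, n = 3 each). The log2 fold change was -0.08 ± 0.07 (SE, 95% interval -0.24 to 0.08), with an edgeR adjusted p of 0.535. The interval leaves room for a small difference in either direction.

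Igfals (chr17:24865997-24882010, plus strand) encodes the acid-labile subunit, which holds IGF-1 and IGFBP-3 or IGFBP-5 in a long-lived complex in blood. It had 67.3, 79.6 and 71.1 CPM in CREBH-KO livers and 99.9, 98.4 and 88.4 CPM in WT livers. Every CREBH-KO library lay below every WT library. Igfals fell in CREBH-KO, with a log2 fold change of -0.39 ± 0.09 (SE, 95% interval -0.60 to -0.19) and an edgeR adjusted p of 0.0263, so that WT livers held 1.31 times the CREBH-KO level. Leaving out WT 2 gave an edgeR adjusted p of 0.104, leaving out CREBH-KO 1 gave 0.0746 and leaving out CREBH-KO 3 gave 0.0952. Scaling libraries by their size alone gave 0.0769.

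Igfbp2 (chr1:72824503-72852474, plus strand) encodes an abundant IGF-binding protein of blood, made in large part by the liver. It had 729.5, 682 and 687 CPM in CREBH-KO livers and 1030.8, 949 and 989 CPM in WT livers. The groups lay far apart, with the highest CREBH-KO library well below the lowest WT library. The means were 699.5 ± 26.1 CPM in CREBH-KO and 989.8 ± 40.7 CPM in WT (SD, n = 3 each). Igfbp2 fell in CREBH-KO, with a log2 fold change of -0.50 ± 0.08 (SE, 95% interval -0.68 to -0.32) and an edgeR adjusted p of 0.0058, and WT livers held 1.41 times the CREBH-KO level. The call was kept without each library in turn, and it was lost only when CREBH-KO 1 alone was set against the 3 WT libraries (edgeR adjusted p = 0.162).

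**Figure D2:**
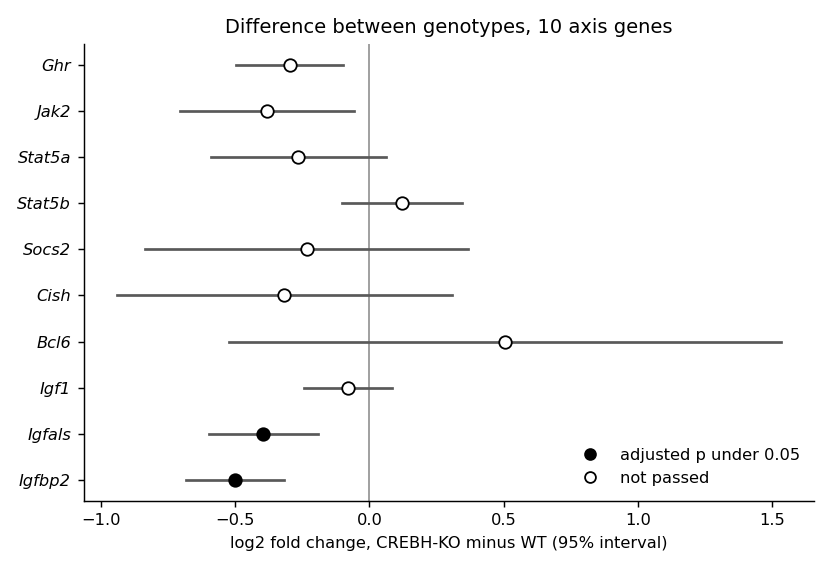
Log2 fold change (CREBH-KO minus WT, x axis) of the 10 axis genes with its 95% interval, where filled points had an edgeR adjusted p under 0.05. Igfals at -0.39 and Igfbp2 at -0.50 are the filled points, and the Bcl6 interval is the widest, from -0.52 to 1.53.

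The other IGF system genes, IGF receptors, binding proteins and their regulators, held larger single differences than the axis genes. Of 20 listed genes 13 were tested, 3 rose in CREBH-KO (Igfbp1, Igfbp3 and Igf2bp2), 0 fell and 10 did not pass. The share called was 23.1%, beside 10.4% of all tested genes. It includes Igf2bp2, which passed the filter on low counts only through its CREBH-KO libraries. This list and those below were chosen with earlier results of these data known, so their shares are a description and no test. The median log2 fold change of the 13 was 0.43, against 0.02 over all tested genes, and it was 0.23 without WT 3. Pappa, Pappa2, Stc1, Stc2, Igf2bp1 and Igf2bp3 were below the filter on low counts. Igf2, the fetal growth factor that adult mouse liver silences, had 0 counts in all 6 libraries, where a limit of 3 counts allows up to 0.101 CPM in a library.

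Igfbp1, which encodes a binding protein that insulin represses and fasting induces in liver, had 401, 269 and 262 CPM in CREBH-KO livers and 69.6, 131 and 65.8 CPM in WT livers. All CREBH-KO libraries lay above all WT libraries. Igfbp1 rose 3.49-fold, a log2 fold change of 1.80 ± 0.27 (SE, edgeR adjusted p = 0.00412). Igfbp3, which encodes the main IGF carrier in blood, had 25.1, 23.3 and 21.4 CPM in CREBH-KO livers and 7.89, 11.4 and 11.4 CPM in WT livers. Its groups did not overlap either, and Igfbp3 rose 2.27-fold, a log2 fold change of 1.18 ± 0.15 (SE, edgeR adjusted p = 0.00214). Both calls were kept under all 15 alternatives tried.

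In rat liver Igfbp3 mRNA is found mainly in non-parenchymal cells. The stellate cell markers Dcn, Lrat, Reln, Des and Colec11 summed to 174 to 214 CPM in CREBH-KO and 139 to 158 CPM in WT. Most of the sum was Dcn, with means of 125 CPM in CREBH-KO and 84.8 CPM in WT. The 5 markers were split: 2 rose (Dcn and Colec11), while Lrat, Reln and Des did not pass. Their log2 fold changes were -0.08, 0.08 and 0.43, with edgeR adjusted p of 0.866, 0.758 and 0.321 in that order. The Kupffer cell markers summed to 57.8 to 73.6 CPM in CREBH-KO and 52.2 to 113 CPM in WT, and the endothelial markers to 113 to 116 CPM in CREBH-KO and 101 to 131 CPM in WT, with 0 of 6 and 0 of 5 called. The part of stellate cell content in the Igfbp3 difference was not tested.

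Igf2bp2, which encodes an RNA-binding protein of the Igf2 mRNA, rose from a low level. It had 1.40, 0.845 and 0.765 CPM in CREBH-KO livers and 0.207, 0.219 and 0.0650 CPM in WT livers, or 98 reads over the CREBH-KO libraries and 17 over the WT libraries. The groups did not overlap, and the log2 fold change was 2.57 ± 0.51 (SE, edgeR adjusted p = 0.0141). Its WT libraries held 8, 7 and 2 reads, so only the CREBH-KO libraries carried Igf2bp2 past the filter on low counts. The rise and the gap between groups are partly fixed by that. The other binding protein genes did not pass. Igfbp4, the most highly counted, had 2028.6, 1814.5 and 1924.5 CPM in CREBH-KO livers and 2030.4, 2504.6 and 2672.7 CPM in WT livers, with an edgeR adjusted p of 0.121. Every CREBH-KO library of Igfbp4 lay below every WT library, with CREBH-KO 1 and WT 1 nearly level. Igfbp4 passed as lower with no filter on low counts, with DESeq2 and without WT 1. The receptor gene Igf1r had 5.21, 4.67 and 3.98 CPM in CREBH-KO livers and 1.91, 2.19 and 4.23 CPM in WT livers, with overlapping groups and an edgeR adjusted p of 0.161.

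**Figure D3:**
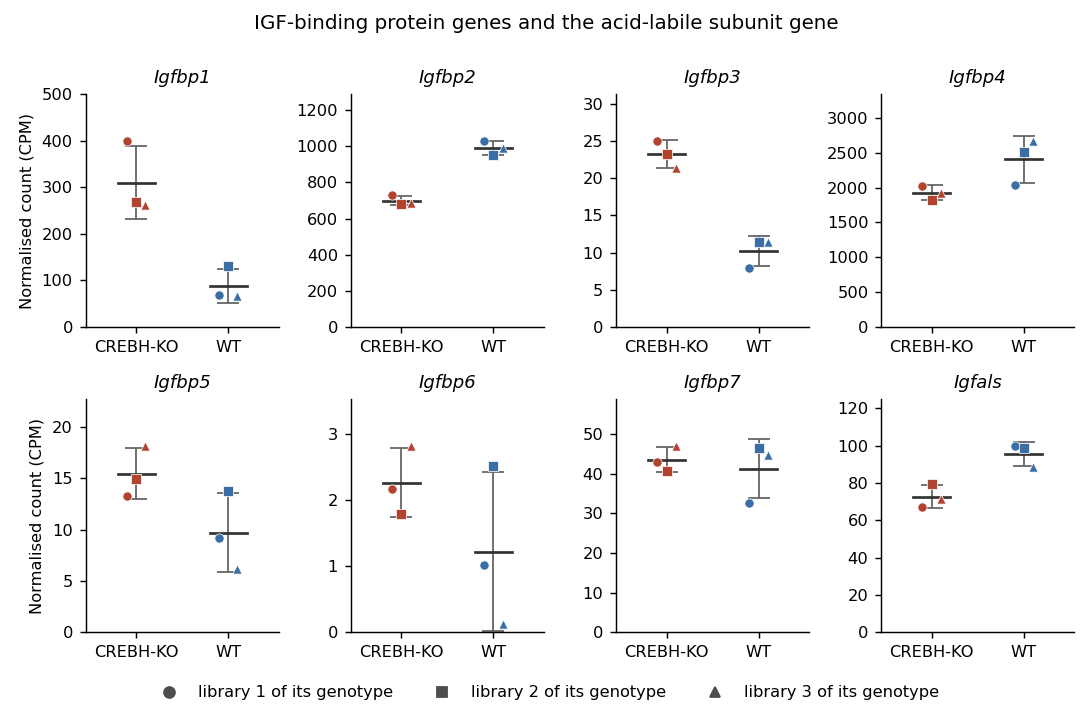
Normalised count (CPM, y axes from 0) of Igfbp1 to Igfbp7 and Igfals in 3 CREBH-KO and 3 WT livers, with 1 point per library, the mean as a bar and the SD as whiskers. Igfbp1 and Igfbp3 lie higher in CREBH-KO, Igfbp2 and Igfals lie lower, and the groups of Igfbp5, Igfbp6 and Igfbp7 overlap.

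Upstream of STAT5, 25 further genes of growth hormone receptor signalling were tested. Of these 4 rose in CREBH-KO, 1 fell and 20 did not pass, with a median log2 fold change of 0.03, which lay between 0.0042 (without WT 1) and 0.079 (without CREBH-KO 1) with single libraries left out. The calls made up 20% of the list, beside 10.4% of all tested genes, a description only, since the list was chosen with earlier results known. The rises were Socs5, Ptpn2, Socs4 and Ptpn6, members of the cytokine signalling suppressor and tyrosine phosphatase families. Socs5 had 7.79, 6.80 and 7.31 CPM in CREBH-KO livers and 4.58, 3.60 and 3.64 CPM in WT livers, with no overlap and a log2 fold change of 0.89 ± 0.17 (SE, edgeR adjusted p = 0.0116). Ptpn2 had a log2 fold change of 0.53 ± 0.13 (SE, edgeR adjusted p = 0.0373) and Socs4 one of 0.47 ± 0.11 (SE, edgeR adjusted p = 0.0268). The fall was Sh2b3, which encodes the adaptor LNK, a negative regulator of JAK2, with a log2 fold change of -0.51 ± 0.13 (SE, edgeR adjusted p = 0.0359). These calls were weak against the choice of libraries. Without WT 2 none of the 25 passed as higher, without CREBH-KO 2 only 1 did, and without WT 3, CREBH-KO 1 or CREBH-KO 3 there were 2 in each case. Socs5 had an edgeR adjusted p of 0.0564 without WT 2. Ptpn2 had 0.0709 to 0.128 when WT 2, WT 3, CREBH-KO 1 or CREBH-KO 2 was left out. The edgeR calls of Socs4 and Sh2b3 were lost when any library but WT 1 was left out, with adjusted p of 0.0538 to 0.0973 for Socs4 and 0.0507 to 0.122 for Sh2b3. The prolactin receptor gene Prlr, Stat3 and the inhibitor gene Socs3 did not pass, with edgeR adjusted p of 0.652, 0.806 and 0.963 in that order.

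Genes known to respond in mouse liver to growth hormone or to loss of STAT5 moved in both directions. Of 11 listed and tested, 3 rose in CREBH-KO, 2 fell and 6 did not pass. These calls made up 45.5% of the list, beside 10.4% of all tested genes. This list too was chosen with earlier results of these data known, so the share is no test. The median log2 fold change was -0.29, or -0.15 without WT 1. The list was not split into genes that growth hormone or STAT5 raises and genes that it lowers. Its counts and median are therefore no measure of STAT5 output. Cdkn1a, which encodes the cell cycle inhibitor p21, had 30.1, 63.6 and 47.1 CPM in CREBH-KO livers and 8.61, 7.70 and 6.99 CPM in WT livers. All CREBH-KO libraries lay far above the WT libraries, with a log2 fold change of 2.59 ± 0.24 (SE, edgeR adjusted p = 4.66e-04). The leptin receptor gene Lepr had 8.72, 15.2 and 6.15 CPM in CREBH-KO livers and 1.40, 1.85 and 3.06 CPM in WT livers. Its groups did not overlap, and the log2 fold change was 2.26 ± 0.38 (SE, edgeR adjusted p = 0.00684).

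The lipid genes of the same list split. Lpl, which encodes lipoprotein lipase, had 60.4, 35.5 and 47.1 CPM in CREBH-KO livers and 24.4, 23.0 and 26.9 CPM in WT livers, a log2 fold change of 0.94 ± 0.17 (SE, edgeR adjusted p = 0.0094, and 0.0518 without WT 2). Pparg, which encodes a lipogenic nuclear receptor, had 5.06, 5.44 and 5.60 CPM in CREBH-KO livers and 13.1, 9.51 and 8.97 CPM in WT livers. It fell in CREBH-KO, with a log2 fold change of -0.97 ± 0.17 (SE, edgeR adjusted p = 0.00872). Cd36, which encodes a fatty acid transporter, had 66.0, 64.1 and 64.6 CPM in CREBH-KO livers and 123, 98.3 and 85.5 CPM in WT livers. It fell as well, with a log2 fold change of -0.66 ± 0.12 (SE, edgeR adjusted p = 0.0115). For all 3 genes the groups did not overlap.

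Sex-biased liver genes read out the pattern of growth hormone release in mice. The Y-linked gene Ddx3y had 76.4 to 97.7 CPM in CREBH-KO libraries and 67.7 to 70.3 CPM in WT libraries. Xist stayed at 0.0612 to 0.527 CPM in CREBH-KO and 0.163 to 0.310 CPM in WT. Every library thus had the expression pattern of male mice, though no label gives the sex. Of 17 male-biased genes, all tested, 2 rose in CREBH-KO, 6 fell and 9 did not pass, with a median log2 fold change of -0.22. That median was -0.03 without CREBH-KO 1, -0.11 without WT 1, -0.42 without CREBH-KO 2 and -0.43 without WT 3. Of 25 female-biased genes 17 were tested, of which 3 rose, 2 fell and 12 did not pass, with a median log2 fold change of 0.01. With single libraries left out this median took either sign, between -0.26 (without CREBH-KO 1) and 0.18 (without WT 2). Calls made up 47.1% of the tested male-biased genes and 29.4% of the tested female-biased genes, beside 10.4% of all tested genes. The gene lists were chosen with earlier results of these data known.

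Selenbp2, a male-biased selenium-binding protein gene, had 40.8, 32.1 and 41.0 CPM in CREBH-KO livers and 263, 260.0 and 130.2 CPM in WT livers. WT 3 was the lowest WT library and still above every CREBH-KO library, and the log2 fold change was -2.52 ± 0.25 (SE, edgeR adjusted p = 5.71e-04). Cyp7b1, which encodes an oxysterol hydroxylase, had 35.6, 57.2 and 80.5 CPM in CREBH-KO livers and 202, 198 and 127 CPM in WT livers. It fell in CREBH-KO, with a log2 fold change of -1.61 ± 0.28 (SE, edgeR adjusted p = 0.00754, and 0.0565 with robust dispersions). Hsd3b5, a steroid-metabolizing enzyme gene, had 3.60, 1.12 and 3.46 CPM in CREBH-KO livers and 7.63, 9.07 and 6.31 CPM in WT livers. It fell too, with a log2 fold change of -1.48 ± 0.36 (SE, edgeR adjusted p = 0.0338), and its adjusted p was 0.0501 when WT 1 was left out, 0.121 when WT 2 was and 0.0639 when CREBH-KO 3 was.

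The male-biased genes that rose were Serpina1e, an alpha-1-antitrypsin gene, and Gstp1, a glutathione transferase gene. Serpina1e had 10144.6, 8963.2 and 11272.6 CPM in CREBH-KO livers and 3953.9, 3174.3 and 2770.0 CPM in WT livers, a log2 fold change of 1.62 ± 0.15 (SE, edgeR adjusted p = 4.74e-04). Gstp1 had 1514.9, 2369.2 and 1937.1 CPM in CREBH-KO livers and 1159.8, 930.5 and 853 CPM in WT livers, a log2 fold change of 0.98 ± 0.17 (SE, edgeR adjusted p = 0.00813). Both rose without overlap between the groups. Serpina1e, Gstp1, Selenbp2 and Cyp2b9 have near-identical copies in the mouse genome, so the split of reads between copies is uncertain.

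Among female-biased genes Cyp2b9, a cytochrome P450 gene, rose, with 227 reads over the CREBH-KO libraries and 9 over the WT libraries. Its log2 fold change was 4.64 ± 0.61 (SE, edgeR adjusted p = 0.00235). Cyp2b9 too passed the filter on low counts only through its CREBH-KO libraries, where it is high. Its rise and its part in the share called are partly fixed by that. Cyp17a1, which encodes a steroid hydroxylase, had 85.1, 54.8 and 34.9 CPM in CREBH-KO livers and 16.4, 25.7 and 28.8 CPM in WT livers, with no overlap. Its log2 fold change was 1.31 ± 0.30 (SE, edgeR adjusted p = 0.0279), and the adjusted p was 0.0515 to 0.0853 without WT 1, WT 2, CREBH-KO 1 or CREBH-KO 2 and 0.123 with robust dispersions. Acot3, an acyl-CoA thioesterase gene, rose with a log2 fold change of 1.28 ± 0.21 (SE, edgeR adjusted p = 0.00689). Atp6v0d2, a proton pump subunit gene, and Tox fell, with log2 fold changes of -1.85 ± 0.42 (SE, edgeR adjusted p = 0.0254) and -1.31 ± 0.28 (SE, edgeR adjusted p = 0.0201) in that order. Without CREBH-KO 3 their edgeR adjusted p were 0.0847 for Atp6v0d2 and 0.0773 for Tox, and for Atp6v0d2 it was also 0.0641 when WT 2 and 0.0515 when WT 3 was left out. Leaving out WT 1 put the count of female-biased genes that fell at 5, leaving out WT 2 or WT 3 put it at 1, and leaving out CREBH-KO 3 put it at 0.

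**Figure D4:**
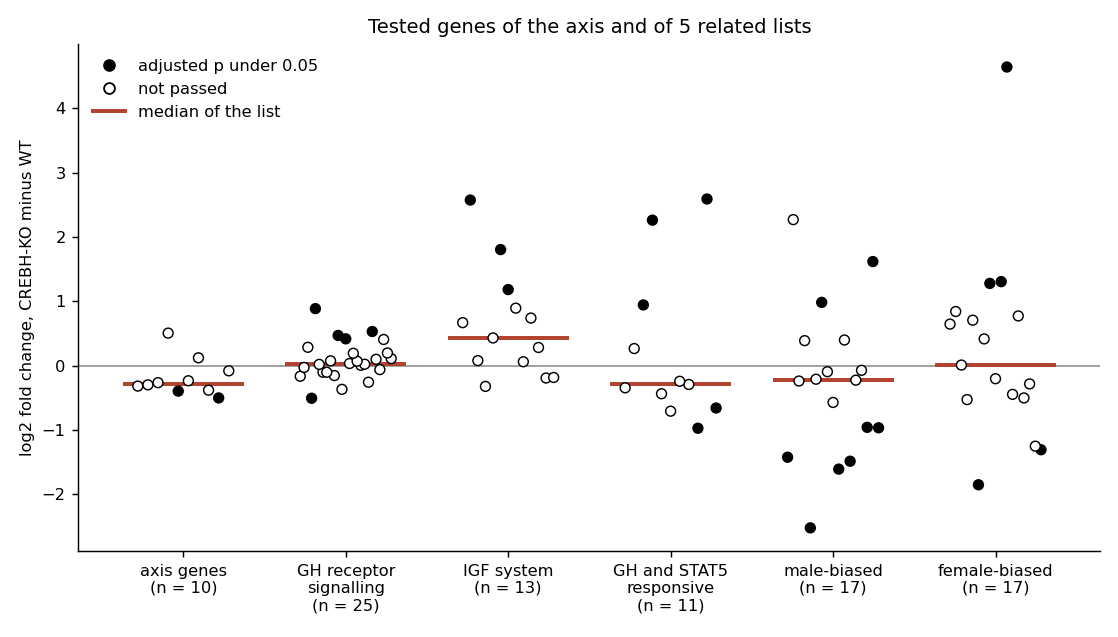
Log2 fold change (CREBH-KO minus WT, y axis) of every tested gene of the axis and of 5 related lists, with filled points for an edgeR adjusted p under 0.05 and the list median as a bar. The axis genes lie between -0.50 and 0.51, while single genes of the other lists reach -2.52 and 4.64.

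Igf1 and Socs2 share chromosome 10 with the targeted gene Creb3l3 (chr10:81084324-81098874), at 6.81 Mb and 14.31 Mb from it. Neither passed the test. Of the tested genes within 10 Mb of Creb3l3 10.6% were called, and within 20 Mb 12.5%, beside 10.4% over the genome. Strain sequence carried along with the targeted allele was not tested.

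The genes whose log2 CPM over the 6 libraries was most like that of Igfbp2, the axis gene with the smallest p, were Reps2 (Pearson r 0.997, Spearman rho 0.943), Smdt1 (Pearson r 0.996, Spearman rho 0.943) and the pseudogene Cyp2a21-ps (Pearson r 0.995, Spearman rho 1.0). These values are a description over 6 libraries that fall into 2 genotypes, and 278 of 12564 genes compared reached an r of 0.95 or more. Reps2 and Smdt1 did not pass the test, with log2 fold changes of -0.25 (edgeR adjusted p = 0.0858) and -0.21 (edgeR adjusted p = 0.0976). Cyp2a21-ps differed most between genotypes, with 5.30, 4.87 and 5.11 CPM in CREBH-KO livers and 26.3, 19.3 and 21.3 CPM in WT livers.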

How the data were processed

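The authors deposited HTSeq counts of reads per Ensembl gene for each library, per the files' contents; for the aligner, genome build, HTSeq version and strand, no setting is given in the sources used here. All 55536 identifiers matched GENCODE M21, from which symbols, positions (GRCm38) and exonic lengths were taken. Reads HTSeq assigned to no gene were 27.4% to 31.2% per library and were left out.

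Genes were kept with edgeR 4.0.16 filterByExpr (minimum count 10, minimum total 15) and scaled by TMM. edgeR's quasi-likelihood test set CREBH-KO against WT over all kept genes, and SE is the absolute log2 fold change over the root of F. On simulated data the test recovered large changes, but with gene-specific dispersions its calls held more unchanged genes than the nominal rate.

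Alternatives were other scalings, filters and tools (DESeq2 1.42.0, limma 3.58.1), robust dispersions and libraries left out. The axis genes and gene lists were chosen with earlier results of these data known. Genes named were Creb3l3, the 10 axis genes, up to 3 rises and 3 falls with the largest change per list, and the 3 genes most like the axis gene with the smallest p; Ptpn6, Prlr, Stat3, Socs3, Igfbp4, Igfbp5, Igf1r and the low-count IGF genes were added afterwards. Marker lists gave, beside those in the text, 1 rise among 5 cholangiocyte genes (Sox9) and 0 calls for T, B, neutrophil and erythroid genes; Lep and Amy2a5 were at 0.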

Additional observations from a re-analysis of the deposited data

How the results depend on the processing

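Of the 32 axis and list genes named by rule, 31 kept 1 sign and 11 kept their side of the threshold under the 15 alternatives, of which the stricter filter left out Cyp2b9 and Igf2bp2. The exception in sign was Socs2, at 0.01 (0.0136) without CREBH-KO 3, and the cause was not tested. The genes called numbered 1616, with 2456 under no filter, 228 for CREBH-KO 1 alone against WT and 658 to 1806 with 1 library left out. Axis genes called lower numbered 2, with 1 under library size alone, 0 for CREBH-KO 1 alone and 1 to 2 with 1 library left out, and those called higher 0, with 0 to 1. The Ghr log2 fold change passed at -0.32 with no filter and -0.31 with DESeq2. That of Igfals missed at -0.32 under library size alone and -0.53 for CREBH-KO 1 alone, and was -0.47 to -0.34 with 1 library left out. That of Igfbp2 missed at -0.46 for CREBH-KO 1 alone. That of Bcl6 was 0.17 to 1.43 with 1 library left out, and passed at 1.43. Receptor signalling genes called lower numbered 0 under library size alone and for CREBH-KO 1 alone and 0 to 1 with 1 library left out; those called higher 0 for CREBH-KO 1 alone and 0 to 4. IGF system genes called lower numbered 1 with no filter and with DESeq2 and 0 to 1 with 1 library left out. STAT5-responsive genes called lower numbered 0 for CREBH-KO 1 alone. Male-biased genes called higher numbered 4 with no filter and 1 for CREBH-KO 1 alone. Female-biased genes called higher numbered 6 with no filter and 5 with DESeq2, and those called lower 5 with no filter, 0 for CREBH-KO 1 alone and 0 to 5 with 1 library left out. The axis median was -0.21 under library size alone and -0.33 to -0.21 with 1 library left out; the receptor signalling median was 0.11 under library size alone, the IGF system median 0.23 to 0.59 with 1 library left out, and the male-biased median -0.74 for CREBH-KO 1 alone. CREBH-KO 1 alone was used because a read file was lost for the other CREBH-KO libraries; its spread is taken from WT. No paired analysis was possible because the labels number no replicates, and the numbers used here, in deposit order, only name the libraries. With 3 libraries per genotype the intervals of Socs2, Cish and Bcl6 span changes larger than those called for Igfals and Igfbp2.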

Other observations

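Ratios were computed for pairs of IGF system genes that had been seen to move in opposite directions, so the separation of the groups is fixed by that choice and the ratios are a description with no test. Igfbp1 reads per Igfbp2 read were 0.549, 0.394 and 0.381 in CREBH-KO livers and 0.0675, 0.138 and 0.0665 in WT livers, a log2 difference of 2.35. Igfbp3 reads per Igfals read were 0.372, 0.292 and 0.301 in CREBH-KO livers and 0.0790, 0.116 and 0.130 in WT livers, a log2 difference of 1.59. A ratio within a library is free of library scaling.

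Igfbp1 and Igfbp3, which both rose in CREBH-KO, are neighbours on chromosome 11 with 3.54 kb between them. Igfbp2 and Igfbp5 are neighbours on chromosome 1 with 5.46 kb between them. Igfbp2 fell, while Igfbp5 had 13.3, 14.9 and 18.2 CPM in CREBH-KO livers and 9.18, 13.8 and 6.18 CPM in WT livers, with overlapping groups and an edgeR adjusted p of 0.136. It passed as higher with no filter on low counts and without WT 2.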
